A study of Arabidopsis thaliana with 14 samples.

Results

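Seed storage globulins were followed across the parts of the Arabidopsis thaliana seed through 5 genes named in the array's annotation: AT2G18540, AT2G28490, PAP85 (locus AT3G22640) and AT4G36700, which encode vicilin-like proteins, and AT1G03890, which encodes a protein of the cruciferin family. They were taken by gene name, with earlier results of these data known. Each was read by 1 probe set, so 5 of the 13350 genes with a probe set of their own were examined. All samples were bending-cotyledon seeds of the Ws-0 strain, whose cotyledons measured 100 to 140 µm, harvested when plants were between 38 and 46 days of age. Whole seeds and 6 compartments were cut from paraffin sections by laser microdissection: embryo proper, 3 endosperm regions (micropylar, peripheral, chalazal) and 2 seed coat regions (chalazal, general). Each of these 7 groups had 2 biological replicates, hybridised to 14 Affymetrix ATH1 arrays in all. Before that, 2 to 5 ng of RNA was amplified from the micropylar endosperm and 5 to 6 ng from the others. Tissue and RNA input therefore cannot be told apart in comparisons of the micropylar endosperm. No transgene, mutation or treatment separated the groups, which share 1 genotype, and the labels do not say how many plants or seeds were pooled.

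Vicilins (7S globulins) and cruciferins (legumin-type globulins) are proteins of the cupin superfamily. They are made on the rough endoplasmic reticulum during seed maturation, sorted to protein storage vacuoles and broken down after germination as a source of nitrogen and carbon. In Arabidopsis most of this reserve lies in the embryo, and the endosperm, which nourishes the embryo and is largely consumed before the seed is mature, also holds storage proteins in the cells that remain. Cruciferins are the major globulins of the Arabidopsis seed and vicilin-like proteins are minor ones.

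A level below is the deposited signal intensity on a linear scale, and a mean is followed by its SD over the 2 arrays. A difference is on the log2(intensity + 32) scale with its standard error (SE) from limma, which understates the change of dim probe sets. A difference was called at an adjusted p under 0.05 (Benjamini-Hochberg over 14765 probe sets) and a size of at least 1 on that scale. Levels of different probe sets are not compared with each other, since probes differ in how brightly they report the same amount of RNA. Less RNA per cell and fewer cells that hold the RNA cannot be told apart in captured tissue.

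The arrays and their labels were compared first. Array medians ran between 99.0 and 188.1, and replicates of a group correlated with r between 0.892 and 0.967 over probe sets. In the embryo proper the summed level of the embryo markers YAB3, a YABBY transcription factor, and STOMAGEN, a secreted peptide of stomatal development, was 2931 and 3229, and on the arrays of the other 5 compartments it lay between 15.3 and 106. These were 2 of 16 listed embryo markers, the ones with a probe set of their own, and neither was above the array's median in any compartment but the embryo. This matters for the micropylar arrays, whose cell type label reads embryo proper while title, source and description read micropylar endosperm. The sum there was 25.7 and 18.4, or 0.834% and 0.597% of the embryo mean. Endosperm markers (4 of 9 with a probe set: AGL62, IKU2, SWEET11 and KRS) summed to 26307 and 26936 in the peripheral endosperm, 9823 and 4508 in the micropylar endosperm, and 243 and 87 in the chalazal endosperm, so the list did not mark the last. AGL62 and IKU2 stayed at or below 95.6 on every array. Seed coat markers (3 of 11: BAN, DFR and ARA12) summed to 34844 and 37216 in the general seed coat, 25097 and 29460 in the chalazal seed coat and at most 2650.0 on the arrays of the other 4 compartments. ARA12 dominated the sum in the seed coat. BAN averaged 199 in the peripheral endosperm, against 652 in the general seed coat, and DFR 732 in the micropylar endosperm, against 2559. In the embryo proper and chalazal endosperm both averaged at most 30. All 3 markers were above the median on both peripheral arrays.

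The storage genes fell into different shapes over the seed. AT2G18540, AT2G28490 and PAP85 had their highest means in the embryo proper, followed, among the compartments, by the micropylar and then the peripheral endosperm. AT4G36700 had its highest mean in the peripheral endosperm and high levels in all compartments but the chalazal endosperm and chalazal seed coat. AT1G03890 was dim on every array.

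AT2G18540, a vicilin-like gene, had levels of 17204 and 18918 in the embryo proper, 6624 and 25268 in the micropylar endosperm, and 887 and 6103 in the peripheral endosperm. It had levels of 254 and 163.0 in the chalazal endosperm, 433 and 93.9 in the chalazal seed coat, and 1328 and 617 in the general seed coat. The 2 micropylar arrays enclosed both embryo values, and the higher peripheral array lay just below the lower micropylar array. No neighbouring groups in its order of means (embryo proper, micropylar endosperm, whole seeds, peripheral endosperm, general seed coat, chalazal seed coat, chalazal endosperm) differed by a called amount.

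AT2G28490, also vicilin-like, had closer micropylar replicates than AT2G18540. Its level was 2651 and 2512.5 in the embryo proper, 1115.0 and 1432 in the micropylar endosperm, and 101 and 589 in the peripheral endosperm. The chalazal endosperm gave 4.78 and 3.56, the chalazal seed coat 21.1 and 49.4, and the general seed coat 169 and 54.7. The embryo, micropylar and peripheral arrays did not overlap, and the chalazal endosperm stood below all the others. Separation of embryo from micropylar arrays was common, in 66.4% of all tested probe sets. Such a share was not computed for the other separations. At 0.185% and 0.138% of the embryo mean, the chalazal endosperm values lay among the dimmest probe sets of those arrays (mean percentile 3.87). In the order of means, the only called step between neighbours was micropylar over peripheral endosperm.

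PAP85, the third vicilin-like gene, had levels of 1924 and 1892 in the embryo proper, 262 and 728 in the micropylar endosperm, and 33.7 and 535.5 in the peripheral endosperm. Levels were 62.2 and 28.2 in the chalazal endosperm, 50.5 and 6.32 in the chalazal seed coat, and 265 and 150.5 in the general seed coat. Both embryo arrays were far above every other compartment, while the peripheral endosperm spanned the general seed coat on either side. No neighbouring groups in its order of means (embryo proper, whole seeds, micropylar endosperm, peripheral endosperm, general seed coat, chalazal endosperm, chalazal seed coat) differed by a called amount.

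AT4G36700, the fourth vicilin-like gene, had levels of 18324 and 19327 in the embryo proper, 22463 and 26548 in the micropylar endosperm, and 37323 and 33639.7 in the peripheral endosperm. Its level was 585.5 and 447 in the chalazal endosperm, 68.3 and 284 in the chalazal seed coat, and 14849 and 7148 in the general seed coat. The 3 groups of the first sentence did not overlap and lay in the order peripheral, micropylar, embryo, with the general seed coat below them and both chalazal tissues far below that. No difference among those 3 groups was called. Embryo and micropylar arrays did not overlap in 66.4% of all tested probe sets, so that separation is common. Such a share was not computed for the other pairs of groups. In its order of means, steps were called between the general seed coat and the chalazal endosperm and between the chalazal endosperm and the chalazal seed coat.

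AT1G03890, whose locus lies next to the cruciferin gene CRU2 in the RefSeq TAIR10.1 gene order, had levels between 3.46 and 69.1 on all 14 arrays. The embryo proper gave 6.56 and 10.9, the micropylar endosperm 13.7 and 42.6, the peripheral endosperm 69.1 and 21.7, and whole seeds 9.51 and 46.9. The chalazal endosperm gave 6.41 and 54.3, the chalazal seed coat 17.2 and 4.69, and the general seed coat 3.46 and 16.8. No array placed it above its own median, with percentiles between 1.88 and 43.1, so it did not pass the filter on low values and was not tested. Its replicates differed by up to 8.48 times (chalazal endosperm). All groups were at levels too dim to be tested, so no order of groups was read from them. The major cruciferin genes (3 listed) and the 2S albumin genes (5 listed) had no probe set naming a single gene and were not analysed here.

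**Figure D1:**
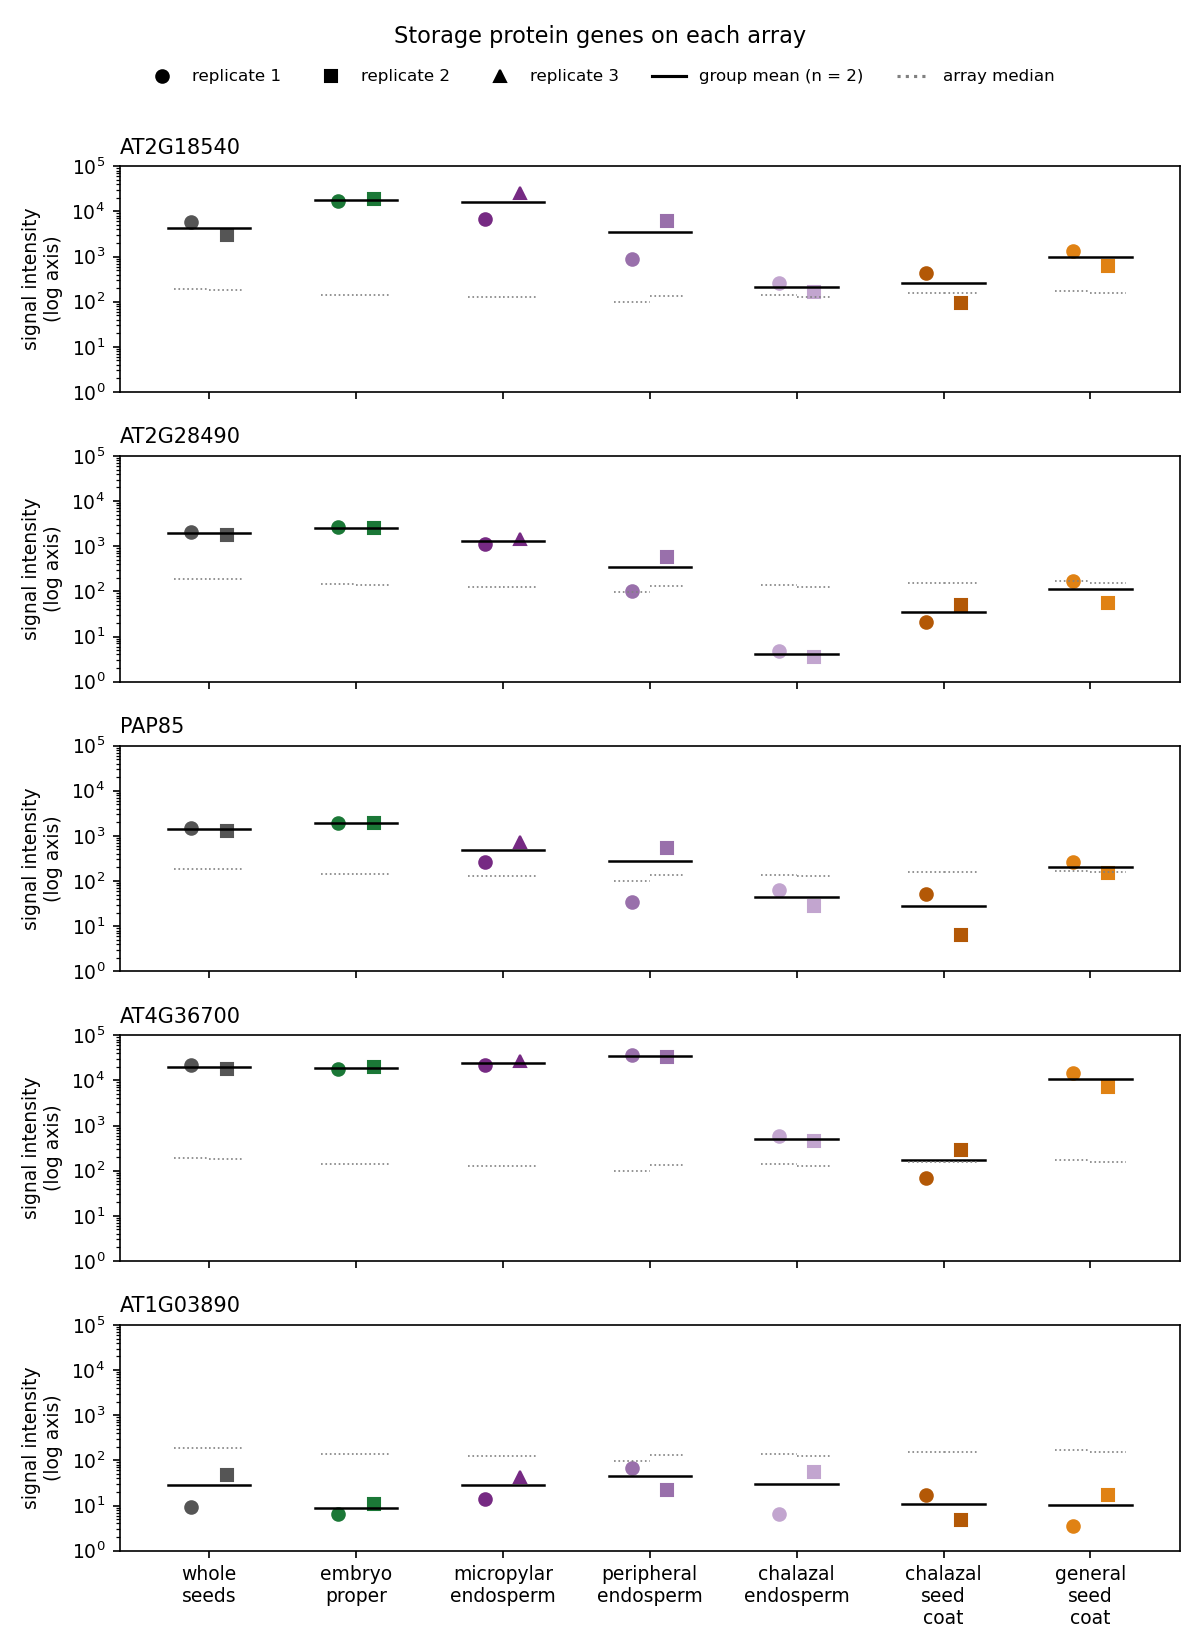
Signal intensity of the 5 storage protein genes on each of the 14 arrays (log axis), 1 panel per gene and 1 point per array, with groups along the horizontal axis, black bars at the group means and dotted lines at the array medians. AT2G18540, AT2G28490 and PAP85 have their highest means in the embryo proper, although the brightest AT2G18540 array is micropylar replicate 3 (25268), AT4G36700 is highest in the peripheral endosperm (37323 and 33639.7), and AT1G03890 stays between 3.46 and 69.1.

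The embryo proper was set against each other compartment to ask how far the storage genes are embryo transcripts at this stage. Against the chalazal tissues all 4 tested members were higher, against the general seed coat and the peripheral endosperm 3 of 4, and against the micropylar endosperm none was called. The background of probe sets called higher in the embryo was 20.4% against the chalazal endosperm, 19.7% against the chalazal seed coat, 19.4% against the general seed coat, 12.9% against the peripheral endosperm and 8.18% against the micropylar endosperm.

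Against the chalazal endosperm, the differences were 6.26 ± 0.75 for AT2G18540 (adjusted p = 5.50e-06), 6.17 ± 0.60 for AT2G28490 (5.38e-07), 4.69 ± 0.76 for PAP85 (1.08e-04) and 5.12 ± 0.40 for AT4G36700 (5.59e-08). The median of the 4 was 5.65, where the median of all tested probe sets was -0.04. Against the chalazal seed coat the median was 5.77, beside -0.08 over all tested, with the largest difference for AT4G36700 (6.73 ± 0.40, adjusted p = 2.31e-09). These 8 calls held under every alternative run, including each array left out.

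Against the general seed coat, AT2G18540 differed by 4.27 ± 0.75 (adjusted p = 2.60e-04), AT2G28490 by 4.31 ± 0.60 (2.71e-05) and PAP85 by 3.06 ± 0.76 (0.0039), and these calls also held under every alternative. AT4G36700 differed by 0.87 ± 0.40 (adjusted p = 0.0998), which missed the threshold; without general seed coat replicate 1, the array where it was brighter, its difference was 1.39 and was called. As a share of the embryo mean, AT4G36700 was at 78.9% and 38% in the general seed coat, PAP85 at 13.9% and 7.89%, AT2G18540 at 7.35% and 3.42%, AT2G28490 at 6.53% and 2.12%, and the summed embryo markers at 2.27% and 3.45%. AT4G36700 and PAP85 stood above the marker share on both arrays, and AT2G18540 and AT2G28490 on replicate 1 alone. Whether captured embryo tissue added to these levels was not tested. The endosperm markers in the general seed coat were at 5.24% and 4.89% of their peripheral mean, where AT4G36700 was at 41.9% and 20.1% of its own peripheral mean.

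Against the peripheral endosperm, AT2G28490 differed by 3.18 ± 0.60 (adjusted p = 0.00105), PAP85 by 3.33 ± 0.76 (0.0042) and AT2G18540 by 2.93 ± 0.75 (0.00969). AT4G36700 ran the other way, at -0.91 ± 0.40 (adjusted p = 0.115), below the level in peripheral endosperm on both arrays but not called. The 4 members had a median difference of 3.06, beside 0.14 over all tested. This comparison rested on the peripheral replicates. Without peripheral replicate 1, the array with the lower values, AT2G18540 differed by 1.56 (adjusted p = 0.168) and PAP85 by 1.77 (0.0663), neither called, and 1 of 4 was called; AT2G28490 stayed called under every alternative. AT2G18540 also missed the threshold without either embryo array. With arrays scaled to a common median, which moved the median of all tested probe sets by -0.27 in this contrast, AT4G36700 was called lower in the embryo (-1.21).

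Against the micropylar endosperm, PAP85 was at 2.04 ± 0.76 (adjusted p = 0.073, unadjusted p = 0.0154), AT2G28490 at 1.01 ± 0.60 (0.277), AT2G18540 at 0.48 ± 0.75 (0.729) and AT4G36700 at -0.38 ± 0.40 (0.586). PAP85 and AT2G28490 did not overlap between these groups, with both embryo arrays higher, and AT4G36700 did not overlap with both embryo arrays lower. Such separation was common with 2 arrays a group, in 66.4% of all tested probe sets. In limma 0 of 4 members were called and 1 had an unadjusted p under 0.05. PAP85 was called without peripheral replicate 1 (adjusted p = 0.00987) or 2, and both PAP85 and AT2G28490 were called when the fit held only the embryo and micropylar arrays. The 4 members' median difference was 0.74, beside 0.10 over all tested.

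**Figure D2:**
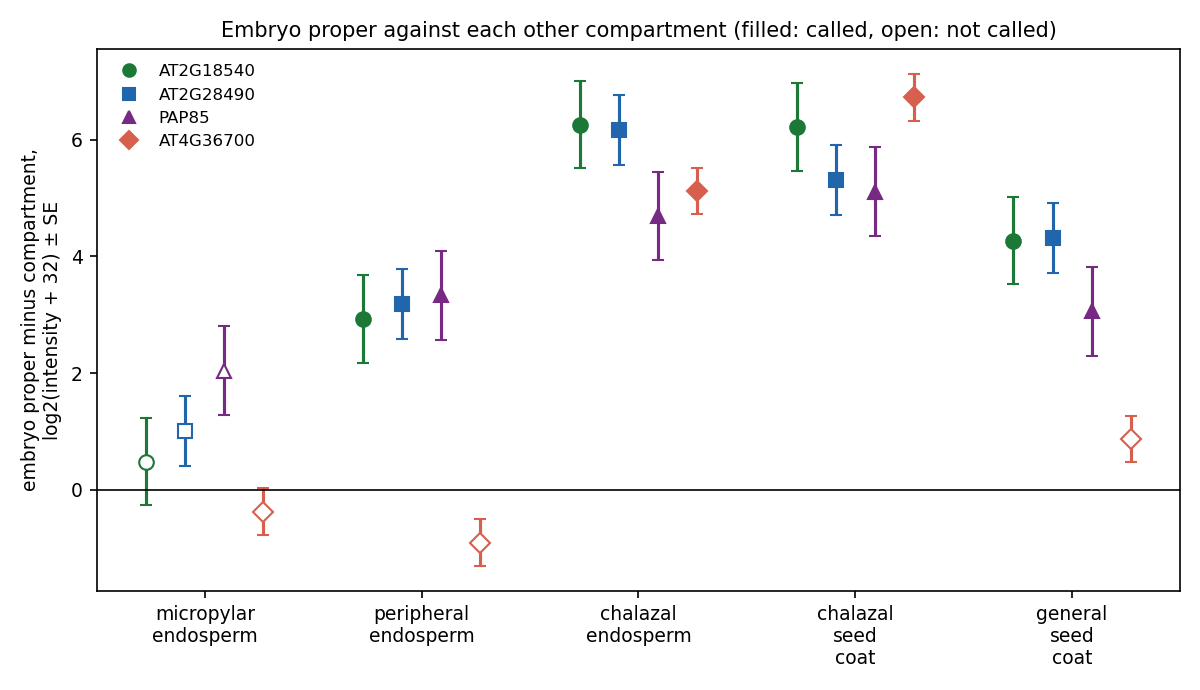
Log2 difference of the embryo proper minus each of the 5 other compartments for the 4 tested members, with SE bars from limma. Filled points were called: all 4 against both chalazal tissues, 3 against the general seed coat and the peripheral endosperm, and none against the micropylar endosperm.

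The levels in the micropylar and peripheral endosperm were set beside those of the embryo markers, as a description. On the micropylar arrays the members stood at 36.7% and 140% (AT2G18540), 43.2% and 55.5% (AT2G28490), 13.7% and 38.2% (PAP85) and 119% and 141% (AT4G36700) of the embryo mean. On the peripheral arrays they stood at 4.91% and 33.8%, 3.93% and 22.8%, 1.77% and 28.1%, and 198% and 179%, in the same order of genes. The embryo marker sum was at or below 0.889% of its embryo mean on these 4 arrays, and each member was above that share on each of them. That sum holds 2 of 16 listed markers, both below the array median on these arrays. On peripheral replicate 1 PAP85 was itself dim, at 33.7 or 0.341 times the array median, beside a marker sum of 15.3. The 2 shares cannot be told apart there, since both come from dim signals. Whether captured embryo tissue added to the members' levels was not tested.

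**Figure D3:**
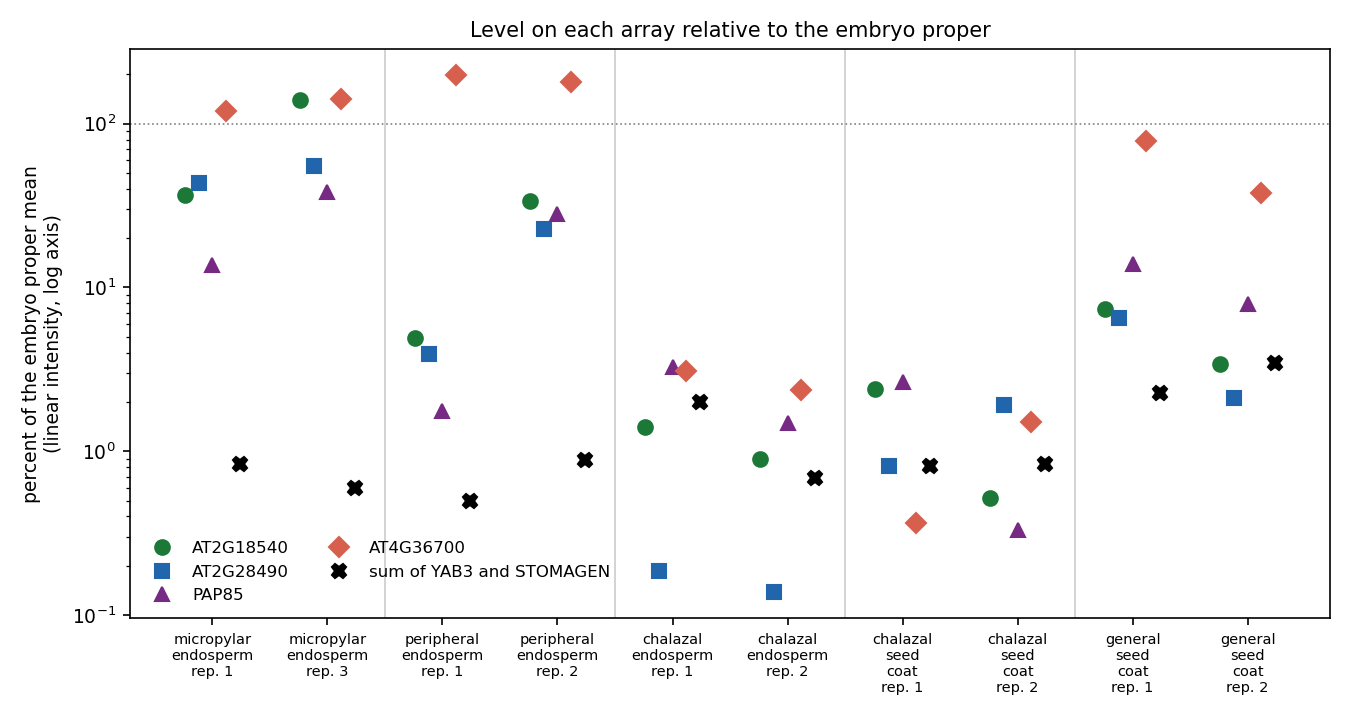
Level on each endosperm and seed coat array as a percent of the embryo proper mean (log axis, dotted line at the embryo mean) for the 4 tested members and for the sum of the embryo markers YAB3 and STOMAGEN. On the micropylar and peripheral arrays the members lie between 1.77% and 198% and the marker sum lies at or below 0.889%.

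In the peripheral endosperm, replicates differed more for AT2G18540, AT2G28490 and PAP85 than for AT4G36700. In the micropylar endosperm this held for AT2G18540 and PAP85, while AT2G28490 was close to AT4G36700. In the peripheral endosperm, replicate 1 minus replicate 2 was -2.74 for AT2G18540, -2.22 for AT2G28490 and -3.11 for PAP85 on the log2 scale, against 0.15 for AT4G36700, where the median gap of all tested probe sets was 0.62 in size. Only 1.82%, 4.73% and 0.813% of tested probe sets had a gap at least as large as those of the first 3. In the micropylar endosperm, replicate 1 minus replicate 3 was -1.93 for AT2G18540 and -1.37 for PAP85. The gaps of AT2G28490 (-0.35) and AT4G36700 (-0.24) were smaller in size than the median of all tested probe sets there, 0.41. In the chalazal endosperm the gaps were 0.55 for AT2G18540, 0.05 for AT2G28490, 0.64 for PAP85 and 0.37 for AT4G36700, without that order. In the chalazal seed coat they were 1.88, -0.62, 1.11 and -1.66 for the same genes, so AT4G36700 did not have the closest replicates there. In the general seed coat the gaps were 1.07, 1.21, 0.7 and 1.05 in the same order of genes, each brighter on replicate 1. The median gap of all tested probe sets there was 0.46 in size. In the embryo the replicates of all 4 lay close together, within 1.1 times of each other. Both embryo markers were below the array median on all 4 micropylar and peripheral arrays, too dim to rank replicates by. The ratio of 3′ to 5′ signal of the GAPDH control, a sign of RNA integrity, was 7.49 on micropylar replicate 3, the highest of the 14 arrays, and 3.86 on micropylar replicate 1, and its part in these gaps was not tested.

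Within the endosperm, the question was whether the storage genes follow its 3 regions. Where a member was called against the chalazal region, the chalazal region was the lower one. All 4 members were higher in micropylar than in the chalazal endosperm, by 5.78 (AT2G18540), 5.16 (AT2G28490), 2.65 (PAP85, adjusted p = 0.0107) and 5.49 (AT4G36700), beside 19.3% of tested probe sets called higher. For PAP85 the call was lost without micropylar replicate 3 or chalazal endosperm replicate 2, with adjusted p-values up to 0.15 over the alternatives, and for the others it held in each. In the peripheral against the chalazal endosperm 3 of 4 were higher, beside 17.0% of tested probe sets: AT4G36700 by 6.03 ± 0.40 (adjusted p = 1.22e-08), AT2G18540 by 3.33 ± 0.75 (0.00236) and AT2G28490 by 2.99 ± 0.60 (9.20e-04). PAP85 was at 1.36 ± 0.76 (0.173) and was called without peripheral replicate 1 (2.91, adjusted p = 0.00242).

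Between the micropylar and the peripheral endosperm 1 of 4 was called, where 6.31% of tested probe sets were called in either direction. AT2G28490 was higher in the micropylar region by 2.17 ± 0.60 (adjusted p = 0.0411). AT2G18540 was at 2.45 ± 0.75 (0.0615), PAP85 at 1.29 ± 0.76 (0.325) and AT4G36700 at -0.54 ± 0.40 (0.46). The call for AT2G28490 held in 10 of 23 alternatives. The count of called members moved with the array left out, as did that of all tested probe sets. Without peripheral replicate 1 the difference of AT2G28490 was 1.06, and without peripheral replicate 2 AT2G18540 was at 3.82 and PAP85 at 2.85. The count was 0 without embryo replicate 1 or 2, micropylar replicate 3, peripheral replicate 1, or whole seed replicate 1 or 2.

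The seed coat is maternal tissue around the embryo and endosperm. AT4G36700 had levels of 68.3 and 284 in its chalazal region, against 14849 and 7148 in the general seed coat. The difference, chalazal minus general, was -5.86 ± 0.40 (adjusted p = 1.58e-07) and ranked 2 by size among all tested probe sets lower in the chalazal region. AT2G18540 (-1.96 ± 0.75, adjusted p = 0.0877), PAP85 (-2.05 ± 0.76, 0.0741) and AT2G28490 (adjusted p = 0.288) were not called, so 1 of 4 was, beside 8.17% of tested probe sets called lower. The count was 3 of 4 without either peripheral array, and 2 of 4 without chalazal seed coat replicate 1. The seed coat marker sum in the chalazal seed coat was 69.7% and 81.8% of the general seed coat mean, but the markers differed in direction. ARA12 averaged 18263 in the chalazal seed coat, against 32819 in the general one, while BAN averaged 2438, against 652, and DFR 6577, against 2559.

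Endosperm and seed coat regions were then crossed, 3 regions against 2, in 6 comparisons of 4 members. Of these 24 differences 15 were called, 12 higher and 3 lower in the endosperm, beside 33.1% called in either direction over all probe sets in the same comparisons. In micropylar endosperm all 4 members exceeded the chalazal seed coat (background 15.3% higher), and AT2G18540, AT2G28490 and AT4G36700 exceeded the general seed coat (14.5%). Peripheral endosperm exceeded the chalazal seed coat in 3 of 4 (15.2%), with AT4G36700 at 7.64 ± 0.40 (adjusted p = 1.67e-09), which ranked 3 by size among all tested probe sets higher there. Some of these calls were lost with an array left out. They were AT4G36700 over the general seed coat in micropylar endosperm without general seed coat replicate 2 (0.72, adjusted p = 0.296) or without either micropylar array, and PAP85 over the chalazal seed coat there without micropylar replicate 3 or chalazal seed coat replicate 2. In peripheral endosperm over the chalazal seed coat they were AT2G28490 without peripheral replicate 2 (1.02, 0.158) or chalazal seed coat replicate 1, and AT2G18540 without peripheral replicate 2 or chalazal seed coat replicate 2 (0.0584).

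Against the general seed coat 1 of 4, AT4G36700, was called higher in the peripheral endosperm (1.78 ± 0.40, adjusted p = 0.00274), beside 14.4% of tested probe sets, and without general seed coat replicate 2 it was at 1.25 (0.0628). The chalazal endosperm was lower than the general seed coat in 3 of 4, beside 19.8% of probe sets called lower: AT4G36700 at -4.25 ± 0.40 (4.27e-07), AT2G28490 at -1.87 ± 0.60 (0.0206) and AT2G18540 at -1.99 ± 0.75 (0.0451). The call for AT4G36700 held under every alternative, that for AT2G28490 in 19 of 24 and that for AT2G18540 in 11 of 24. Chalazal endosperm over chalazal seed coat was called for AT4G36700 alone (1.61 ± 0.40, 0.00492), beside 15.1% of probe sets called higher, and without chalazal seed coat replicate 1 it was at 0.78 (0.12). Leaving out 1 array at a time moved the count of 15 to between 12 and 19.

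Whole seeds show what the undissected mixture held. AT2G18540 had levels of 5721 and 2983 in whole seeds, AT2G28490 2074.5 and 1805, PAP85 1515.5 and 1296, and AT4G36700 21927 and 17998. As shares of the embryo mean these came to 31.7% and 16.5% (AT2G18540), 80.4% and 69.9% (AT2G28490), 79.4% and 67.9% (PAP85) and 116% and 95.6% (AT4G36700), and the embryo marker sum was at 52.1% and 34.5%. AT2G28490 and PAP85 thus had higher shares than the marker sum on both arrays, and AT2G18540 lower ones.

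Against the mean of the 6 compartments on the log2 scale, 3 of 4 were higher in whole seeds, beside 6.37% of tested probe sets called higher. AT2G28490 was higher by 2.92 ± 0.46 (adjusted p = 6.25e-04), PAP85 by 2.60 ± 0.58 (0.00773) and AT4G36700 by 1.98 ± 0.31 (5.90e-04). PAP85 lost the call without whole seed replicate 1 or 2 (adjusted p up to 0.155). AT2G18540 was at 1.24 ± 0.58 (0.208). A mixture adds up on the linear scale, and a mean of log values is pulled down by compartments where a gene is nearly silent, so a positive log2 difference is partly built into this comparison. On the linear scale AT2G28490 averaged 1940 in whole seeds, against 725 over the compartments, and PAP85 1406.0, against 495. AT4G36700 averaged 19963 in whole seeds, against 15084 over the compartments, and AT2G18540 4352, against 6491. These linear means weigh the 6 compartments alike, while the share of each compartment in whole-seed RNA is not given, so they are not the level of a mixture. Against the embryo alone, 0 of 4 members were called in limma (1 at an unadjusted p under 0.05), beside 7.29% of tested probe sets: AT2G18540 was at -2.12 ± 0.75 (0.108), PAP85 at -0.44 ± 0.76, AT2G28490 at -0.41 ± 0.60 and AT4G36700 at 0.08 ± 0.40. AT2G18540 was called lower without either peripheral array and when only the arrays compared were fitted (adjusted p down to 1.75e-04).

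Genes of the storage protein pathway were set beside the members in the embryo proper against the mean of the other 5 compartments. There the 4 tested members were higher, by between 2.28 ± 0.31 (AT4G36700) and 4.03 ± 0.58 (AT2G18540), with a median of 3.82, beside 17.2% of probe sets called higher, 15.1% lower and a median of -0.01. This comparison averages logs over the 5 compartments, both chalazal tissues included. For AT4G36700 the linear mean was 18826 in the embryo, against 14336 over the other 5, and its micropylar (24505) and peripheral (35481) means were above the embryo mean. Of 7 listed vacuolar processing enzymes and aspartic proteases, 1 was higher and 4 were lower, with a median of -2.23. PASPA2 (AT1G62290), an aspartic protease of the phytepsin type, was higher in the embryo (3.33 ± 0.36, adjusted p = 2.18e-06). Its levels were 8165 and 8486 in the embryo proper, 13985 and 11664 in micropylar endosperm, 3033 and 5892 in the peripheral endosperm and at most 996 on the other compartment arrays. So PASPA2, too, was high in the embryo, micropylar and peripheral endosperm and low in both chalazal tissues.

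DELTA-VPE, a vacuolar processing enzyme (cysteine protease) known from the inner seed coat, was lower in the embryo (-4.43 ± 0.30, adjusted p = 1.51e-08), at 13.5 and 42.7 there. Its levels were 3782 and 3264 in the general seed coat, but 142 and 278 in the chalazal seed coat. In the endosperm they were 1922 and 1663 (micropylar), 1178 and 1320 (peripheral) and 1594 and 1638 (chalazal). ALPHA-VPE, another vacuolar processing enzyme, was lower too (-3.12 ± 0.33, 1.63e-06), at 133.5 and 72.7 in the embryo, against 6137 and 8766 in the peripheral endosperm. The processing enzyme of storage proteins in the embryo, BETA-VPE, was at -0.01 ± 0.26 (0.987).

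Few genes of the other lists had a probe set of their own. Of the vacuolar sorting genes 2 of 14 did and 0 were called in limma, though AT1G71980 (RMR2) had an adjusted p of 0.0361 at a difference of -0.81. Of the folding factors of the endoplasmic reticulum 2 of 10 did, and CNX2 (AT5G07340), a calnexin, was higher in the embryo (1.69 ± 0.33, adjusted p = 7.23e-04). Of the maturation regulators 2 of 18 did, both bZIP transcription factors: EEL was higher (1.12 ± 0.24, 0.00126) and BZIP53 lower (-1.03 ± 0.23, 0.00181). EEL had levels of 12501 and 12914 in the embryo proper, 19171 and 19013 in micropylar endosperm, 19968 and 9594 in the peripheral endosperm, 10904 and 9931 in the chalazal endosperm and at most 2181 in the seed coat regions. Its micropylar and peripheral means (19092 and 14781) were above its embryo mean (12707.5). Its chalazal endosperm levels were thus near its embryo levels, where all 4 members were lower than in the embryo. The membrane proteins of the storage vacuole (2 listed) had no probe set naming a single gene and were not analysed here.

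The genes most alike in pattern were found by Pearson's r of log2(intensity + 32) over the 14 arrays among 8175 tested probe sets naming 1 gene. These values describe arrays that share groups and scaling, and carry no test. For AT4G36700 they were OLEO3 (r = 0.981), an oleosin that coats oil bodies, AT2G34700 (0.974), AT4G30660 (0.973) and ULT1 (0.972), a developmental regulator. OLEO3 averaged 35330.0 ± 953 in the embryo proper, 30189 ± 891 in micropylar endosperm, 37803 ± 382 in the peripheral endosperm and 10452 ± 5034 in the general seed coat. It averaged 1566 ± 610.1 in the chalazal endosperm and 382 ± 338 in the chalazal seed coat.

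For AT2G28490 the closest were AT3G23700 (0.983), AT1G54860 (0.97), the protein kinase gene APK1A (0.963) and ALDH11A3 (0.96), an aldehyde dehydrogenase. For AT2G18540 they were AT3G57930 (0.963), AT3G04550 (0.952), the receptor kinase gene CR4 (0.951) and CHLI2 (0.944), a subunit of the magnesium chelatase of chlorophyll synthesis. For PAP85 they were AT4G23820 (0.95), PDF1B (0.937), a peptide deformylase, AT2G19320 (0.933) and AT4G28706 (0.933). No member was among the 4 most alike of another member, which is a narrow cut. Ranked by r among all tested probe sets, AT2G18540, AT2G28490 and PAP85 stood between 21 and 143 for one another. Ranks between AT4G36700 and the others ran from 634 to 1273. Between members r was 0.93 for AT2G18540 with AT2G28490 and for AT2G28490 with PAP85, 0.89 for AT2G18540 with PAP85, and between 0.69 (PAP85) and 0.78 (AT2G18540) for AT4G36700 with the others. The mean of AT3G57930 in the micropylar endosperm, 16543 ± 5829, also carried a wide spread between the replicates, as AT2G18540 did at 15946 ± 13184.

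**Figure D4:**
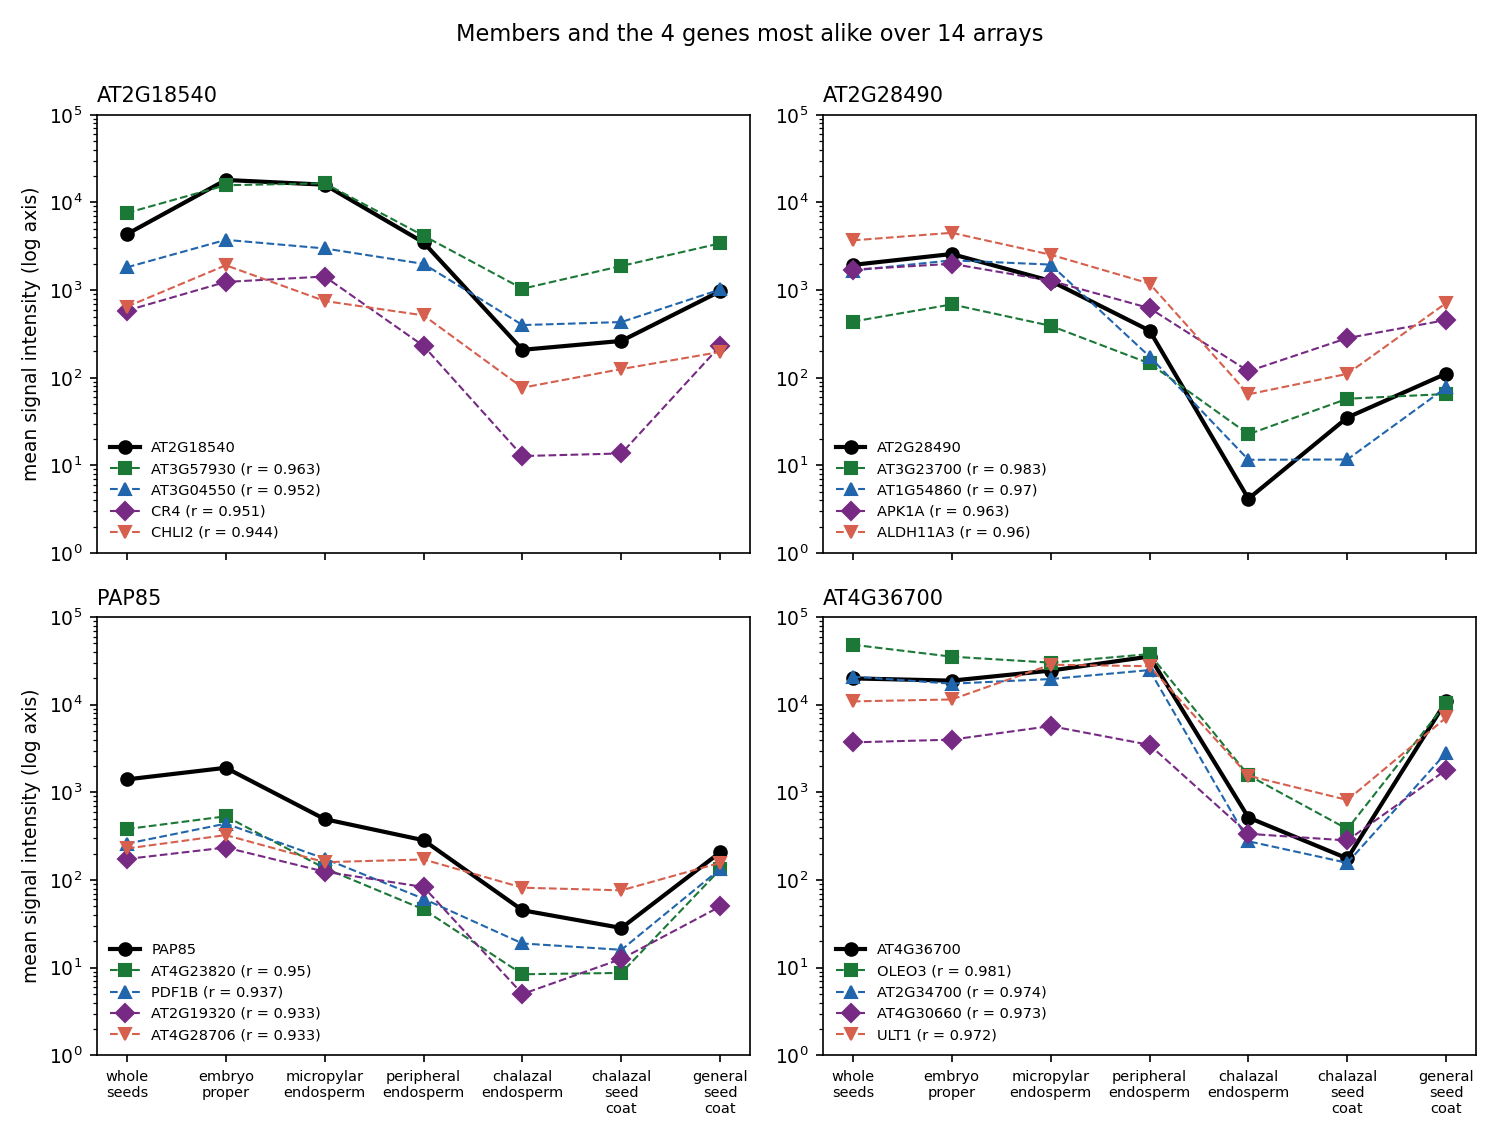
Group means of signal intensity (log axis) for each tested member (black) and the 4 genes with the highest Pearson r over 14 arrays, 1 panel per member, with r in the legend. The lines of AT4G36700 and OLEO3 (r = 0.981) lie highest over whole seeds, embryo, micropylar and peripheral endosperm (19963, 18826, 24505 and 35481 for AT4G36700) and lowest in both chalazal tissues. Lines join groups only to guide the eye.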

How the data were processed

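Per the labels' protocols, fixed and paraffin-embedded seeds were sectioned, compartments were captured by laser microdissection, and RNA was amplified, biotin-labelled and hybridised to ATH1 arrays. The deposited files give 1 linear signal intensity per probe set and array, made by the authors in GCOS (per the submitters' processing notes, with no version in the sources used here). Scaling had been applied before deposit: the 2% trimmed mean of each array was 500 to within rounding. Per-probe data and detection calls were not used here, and arrays carry no read depth, so the 2 replicates limit the precision. The labels call replicates biological without naming plants, so p-values measure only the spread between these samples.

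Control probe sets (64 of 22810) were left out. Testing required a level over the array median on both arrays of 1 group or more, which kept 14765 of 22746 probe sets (64.9%). Log2(intensity + 32) was modelled with limma 3.58.1 under R 4.3.3 (lmFit, then eBayes with the trend option): 7 group means, 14 arrays, 7 residual degrees of freedom, 16.99 at the median after moderation. Benjamini-Hochberg adjustment ran over all tested probe sets of a contrast. The fit was tested on simulated data. GEO's platform annotation gave the names, brought up to date from the RefSeq TAIR10.1 table, which served only for names and gene order. Of the 22746 probe sets 13513 named 1 gene (13436 found in the RefSeq table), 503 several and 8730 none.

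Other named genes are the 4 most alike in pattern to each member and up to 3 called genes of each list with the largest differences; BETA-VPE and AT1G71980 were added after their values were seen. Members and lists (11 lists, 100 genes, 27 with a probe set of their own) were chosen with earlier results of these data known. Alternatives were other pseudocounts, filters, scalings and fits, a replicate block, and each array left out. Same-numbered replicates of different groups did not deviate together (r between -0.031 and 0.045 over 15 pairs of groups), so numbers served as names only.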

Additional observations from a re-analysis of the deposited data

How the results depend on the processing

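Over the 92 member differences, 2176 values were recomputed under alternatives: 2055 stayed on their side of the threshold, 85 lost the call, 36 gained it and 0 called differences changed sign. Among the uncalled differences, 9 had another sign in some setting. The replicate block (numbers do not pair the arrays) left 87 differences as they were and 5 lost the call, and without both micropylar arrays, chosen after seeing the data because their labels disagree, all 60 remaining ones were as before. The count of members higher in the embryo than in the micropylar endosperm, 0, was 1 with log2(value + 100), 2 when only the arrays compared were fitted and 0 to 1 with an array left out. Against the peripheral endosperm, 3 was 1 with only the arrays compared and 1 to 3 with an array left out. Between micropylar and peripheral endosperm, 1 was 0 with log2(value + 1), no filter, quantile normalization, no intensity trend, only the arrays compared or the replicate block, 2 with log2(value + 100), and 0 to 3 with an array left out. Between the seed coat regions, 1 was 1 to 3 with an array left out. The other 8 counts stayed within 1.5 times of their main value. The cause was not tested, except that leaving out arrays leaves fewer samples. Median scaling shifted the median of all tested probe sets by between -0.63 (whole seeds against peripheral endosperm) and 0.45 (peripheral endosperm against general seed coat). At low levels, those near 5 among them, signal and background of an array cannot be told apart. No upper limit of that range was set, since detection calls were not used.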
